A study of Mus musculus with 18 samples.

Results

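MHC class I antigen presentation was followed through 10 mouse genes: the heavy chain genes H2-K1, H2-D1 and H2-T23, the light chain gene B2m, the peptide transporter genes Tap1 and Tap2, the tapasin gene Tapbp, and Psmb8, Psmb9 and Psmb10, which encode the inducible catalytic subunits of the immunoproteasome. They were taken by symbol from a table of 26599 rows under 26434 symbols. All 10 symbols were found, Psmb9 in 2 rows under different gene IDs, so 11 rows stand for 10 genes. The RNA came from MEL, an established mouse erythroleukemia cell line, grown without inducer (day 0) or for 5 days with 2% dimethyl sulfoxide (DMSO, day 5), which drives the cells toward hemoglobin synthesis. Both groups are the same line, and no genotype differs between them. There were 2 biological replicates per day and assay, and beside the RNA the same design was used for DNase-seq, PU.1 ChIP-seq and ChIA-PET of RNA polymerase II, a method that lists pairs of regions held together in an immunoprecipitate. All samples come from 1 leukemia line, and no day 5 sample was grown without DMSO. Effects of 5 days in culture, or of DMSO other than maturation, cannot be told apart from maturation.

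Class I molecules display peptides from inside the cell to T cells and natural killer cells. Proteasomes cut proteins to peptides, TAP1 and TAP2 carry these into the endoplasmic reticulum, tapasin holds TAP next to an empty class I molecule, and a heavy chain bound to B2M and a peptide then travels to the cell surface. Interferons raise the whole set through STAT and IRF factors, and NLRC5 with the RFX and NF-Y factors binds the promoters of the heavy chain and B2m genes.

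Promoter sequence is given for 6 genes. Tapbp and H2-T23 passed the test below, and H2-K1 and H2-D1 are the classical heavy chain pair. B2m is the light chain gene, and Tap1 shares upstream DNA with Psmb9, which is not shown. The sequences are RefSeq's for build GRCm38.p6, the 250 bases before the annotated start site, written 5′ to 3′ on the gene's own strand, and 9 of 10 members had an entry. Capitals mark matches to an interferon response element (GAAA, any 2 bases, GAAA) or to the kappaB consensus, searched on both strands. B2m lies at chr2:122147437-122147686 (plus strand), H2-T23 at chr17:36032702-36032951 (minus strand), H2-K1 at chr17:34000348-34000597 (minus strand), H2-D1 at chr17:35262844-35263093 (plus strand), Tapbp at chr17:33919228-33919477 (plus strand) and Tap1 at chr17:34187306-34187555 (plus strand). RefSeq has 2 start sites for H2-K1, and the window of the upstream one is shown. All are sequences of the reference build, and the sequence of the MEL line, which was not read here, may differ.
B2m: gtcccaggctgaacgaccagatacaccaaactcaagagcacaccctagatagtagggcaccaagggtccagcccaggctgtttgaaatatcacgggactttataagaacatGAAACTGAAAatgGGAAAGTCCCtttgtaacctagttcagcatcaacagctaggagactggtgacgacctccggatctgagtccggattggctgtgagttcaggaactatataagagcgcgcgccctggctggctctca
H2-T23: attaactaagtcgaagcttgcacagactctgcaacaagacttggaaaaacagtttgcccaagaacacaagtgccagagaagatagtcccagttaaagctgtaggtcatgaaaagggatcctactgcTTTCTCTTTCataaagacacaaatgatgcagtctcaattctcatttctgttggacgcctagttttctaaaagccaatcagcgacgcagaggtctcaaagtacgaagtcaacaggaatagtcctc
H2-K1: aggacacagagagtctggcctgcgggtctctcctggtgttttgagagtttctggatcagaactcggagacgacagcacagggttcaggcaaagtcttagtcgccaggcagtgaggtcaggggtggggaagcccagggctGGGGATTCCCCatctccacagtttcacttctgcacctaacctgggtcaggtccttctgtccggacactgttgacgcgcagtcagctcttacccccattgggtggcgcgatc
H2-D1: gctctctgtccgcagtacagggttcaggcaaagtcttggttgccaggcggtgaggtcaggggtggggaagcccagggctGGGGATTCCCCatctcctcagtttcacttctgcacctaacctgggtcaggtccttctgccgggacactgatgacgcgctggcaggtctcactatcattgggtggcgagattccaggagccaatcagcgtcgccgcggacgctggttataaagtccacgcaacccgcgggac
Tapbp: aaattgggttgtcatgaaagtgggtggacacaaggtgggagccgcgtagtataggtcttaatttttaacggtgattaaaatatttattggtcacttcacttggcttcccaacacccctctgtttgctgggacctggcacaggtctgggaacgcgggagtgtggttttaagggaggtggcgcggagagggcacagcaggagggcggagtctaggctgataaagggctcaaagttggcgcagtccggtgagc
Tap1: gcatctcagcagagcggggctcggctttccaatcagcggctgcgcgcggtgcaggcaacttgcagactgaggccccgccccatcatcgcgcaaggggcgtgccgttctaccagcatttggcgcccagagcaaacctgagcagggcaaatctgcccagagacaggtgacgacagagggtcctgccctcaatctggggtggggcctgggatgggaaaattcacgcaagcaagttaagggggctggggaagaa

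The interferon element was found before 2 members, B2m (139 bases before the start) and H2-T23 (124 bases before, on the opposite strand), and in 2.98% of 32536 upstream windows of this length. A kappaB match was found before B2m, H2-K1 and H2-D1 and in 7.28% of all windows. In H2-K1 and H2-D1 the consensus matched at neighbouring positions on both strands, so its hits overlap. A STAT palindrome (TTCNNNGAA) stood before Psmb8 alone, as TTCCCAGAA at 97 bases before its start, and in 7.04% of all windows. The letters CCAAT, bound by NF-Y, were present before 7 of the 9 members and in 33.8% of all windows, and TGACG, a CRE core, before 5 and in 17.9%. The PU.1 core GAGGAA (23.4% of all windows) and the GATA letters AGATAA (9.97%) had no match in these members' windows, which says only that these letters are not there. Tap1 and Psmb9 are transcribed away from each other from start sites 226 bases apart, and their windows share 225 bases, so both motifs found there, CCAAT and TGACG, belong to both genes.

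RNA levels are FPKM, fragments scaled to transcript length and to library size, as deposited. The 4 libraries summed to between 758150 and 787494 FPKM, and 10227 to 10601 genes reached 1 FPKM in each. FPKM carry no read numbers and low values fall on no common step, so the depth is unknown. Fold changes and tests are on log2(FPKM + 1), by limma over the 10736 genes that reached 1 FPKM in 2 or more libraries, with Benjamini-Hochberg adjustment over all of them and a threshold of 0.05. Day 5 libraries held 3.74% and 3.98% of their FPKM in globin genes, against 0.134% and 0.217% on day 0, and the median log2 change of all tested genes was 0.15.

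On day 5 tapasin RNA was higher and H2-T23 RNA lower, and the other members did not pass. All 11 rows were tested, and 1 was called higher, 1 lower and 9 neither. Of all tested genes 18.5% were called, 10.7% higher and 7.81% lower, so this number of calls is near the background. Both day 5 libraries lay below both day 0 libraries in 6 rows (27% of all genes), above them in 3 (40.2% of all genes), and overlapped them in 2. The median change of the 11 rows, which count Psmb9 in duplicate, was -0.69. It was -0.46 with the Psmb9 rows summed and -0.04 over the 9 rows left by a filter of 5 FPKM. In the plot of FPKM by library both day 5 points lie under both day 0 points for H2-T23, B2m and the immunoproteasome genes and over them for Tap1, Tap2 and Tapbp, of which H2-T23 and Tapbp alone passed the test.

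**Figure D1:**
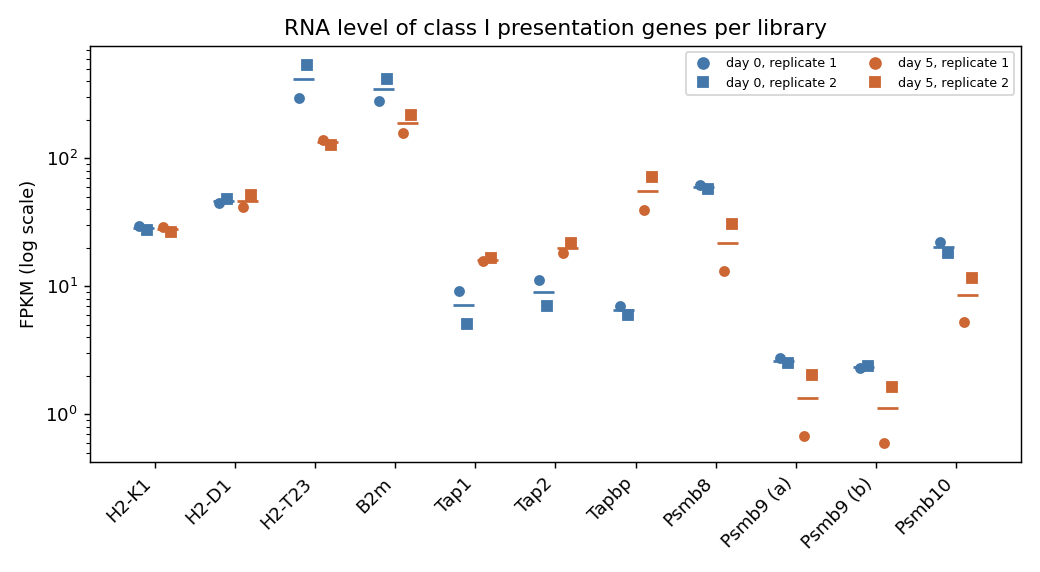
FPKM (log scale) of each member in each of the 4 libraries, with a line at the mean of each day. Psmb9 (a) is the row ENSMUSG00000024337.8 and Psmb9 (b) the row ENSMUSG00000092299.1. Tapbp stands at 39.5 and 71.1 FPKM on day 5 against 5.97 and 7.01 on day 0, while the H2-K1 and H2-D1 points of both days overlap.

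H2-K1 and H2-D1 encode the classical heavy chains of this locus, and neither passed the test. H2-K1 had 29.7 and 27.7 FPKM on day 0 and 29.2 and 26.6 on day 5, a log2 change of -0.04 ± 0.19 (SE, n = 2 per day, limma adjusted p = 0.89). The 95% interval of that change ran from -0.52 to 0.43. H2-D1 had 45.1 and 47.8 FPKM on day 0 and 41.3 and 51.5 on day 5, with a change of -0.01 ± 0.19 and an interval of -0.50 to 0.48 (limma adjusted p = 0.979). In both genes the libraries of the 2 days overlapped. Class I heavy chain genes are near-identical in long stretches and differ between mouse strains, so how reads were shared among them is uncertain and the level of each single gene with it.

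H2-T23 encodes Qa-1, a nonclassical heavy chain that presents leader peptides of other class I chains to NKG2 receptors. It stood at 298 and 539 FPKM on day 0 and fell to 140 and 128 FPKM on day 5. The day 0 replicates differ from each other by more than the day 5 replicates do, yet no library of 1 day reached the range of the other. The mean went from 419 ± 170 to 134 ± 8.15 FPKM (SD, n = 2), 3.13-fold lower, with a log2 change of -1.58 ± 0.30 (limma adjusted p = 0.0302). B2m, the light chain that every one of these heavy chains needs, had 283 and 420 FPKM on day 0 and 157 and 218 on day 5. Its change of -0.90 ± 0.27 did not pass (limma adjusted p = 0.0722, interval -1.58 to -0.22), although the days did not overlap. H2-T23 and B2m headed the members on both days. Within each day 0 library H2-T23 was the higher, although the ranges of these genes overlapped. Within each day 5 library B2m was the higher.

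Among 6928 other genes averaging 10 FPKM or more, those whose centred log2 profile over the 4 libraries lay nearest to that of B2m were Cops2 (Euclidean distance 0.064), 1110002B05Rik (0.109) and 2700062C07Rik (0.113). Cops2, a subunit gene of the COP9 signalosome, had 104.5 and 150 FPKM on day 0 and 57.8 and 76 on day 5. With 4 points the likeness is a description of these libraries.

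Tapbp had the largest change of the members. Tapasin RNA stood at 7.01 and 5.97 FPKM on day 0 and at 39.5 and 71.1 FPKM on day 5. Both day 5 libraries were far above both day 0 libraries, and differed from each other as well. Its mean rose 8.52-fold, from 6.49 ± 0.736 to 55.3 ± 22.3 FPKM (SD, n = 2), with a log2 change of 2.85 ± 0.33 (limma adjusted p = 0.0118). On day 5 the Tapbp libraries overlapped those of H2-D1.

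The TAP genes, whose products form 1 transporter, lay higher on day 5 in every library but did not pass. Tap1 had 9.21 and 5.03 FPKM on day 0 and 15.8 and 16.5 on day 5, a log2 change of 1.13 ± 0.33 (limma adjusted p = 0.0666, interval 0.31 to 1.95). Tap2 had 11.2 and 7.02 FPKM on day 0 and 18.1 and 21.9 on day 5, with 1.08 ± 0.29 (limma adjusted p = 0.0589, interval 0.34 to 1.82). The means of the pair were 2.27-fold and 2.19-fold higher. Within each day 0 library Tap2 was above Tap1 and Tapbp. The day 0 range of Tap1 overlapped those of both others, and the lower Tap2 value (7.02) barely exceeded the higher Tapbp value (7.01). On day 5 both Tapbp libraries were above every TAP value.

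The immunoproteasome genes lay lower on day 5 in every library without passing the threshold. PSMB8 (LMP7), PSMB9 (LMP2) and PSMB10 (MECL1) replace the constitutive subunits PSMB5, PSMB6 and PSMB7 in the proteasome and change which peptides it makes. Psmb8 had 62.4 and 58.0 FPKM on day 0 and 13.2 and 30.7 on day 5, a log2 change of -1.53 ± 0.40 (limma adjusted p = 0.0537, interval -2.53 to -0.53). Psmb10 had 22.3 and 18.1 FPKM on day 0 and 5.30 and 11.7 on day 5, with -1.24 ± 0.39 (limma adjusted p = 0.0783). In all 3 genes day 5 replicate 1 held less than replicate 2, and even the higher day 5 value stayed under both day 0 values.

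Psmb9 was the least abundant member, and is listed in 2 rows. The row ENSMUSG00000024337.8 had 2.74 and 2.50 FPKM on day 0 and 0.671 and 2.01 on day 5, with a log2 change of -0.69 ± 0.41 (limma adjusted p = 0.266). The row ENSMUSG00000092299.1 had 2.30 and 2.40 FPKM on day 0 and 0.594 and 1.64 on day 5, with -0.71 ± 0.39 (limma adjusted p = 0.238). How reads were divided between these rows is uncertain. With both summed, an alternative chosen after seeing the data, the change was -0.88 ± 0.43 (limma adjusted p = 0.191). Psmb9 thus stood lower on day 5 while Tap1, read from the same upstream stretch in the other direction, stood higher, and neither change passed the test.

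**Figure D2:**
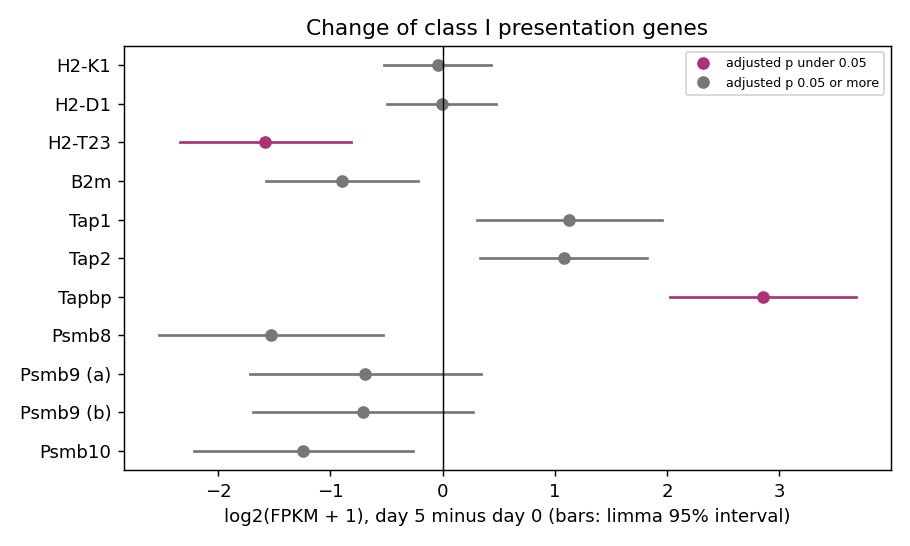
Log2(FPKM + 1) on day 5 minus day 0 for each member row, with the 95% interval of limma. Tapbp (2.85) and H2-T23 (-1.58), in colour, passed an adjusted p of 0.05, and H2-K1 and H2-D1 sit at 0 with intervals of about 0.5 to each side.

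These calls rest on all 4 libraries. With any 1 library left out, limma called 0 members (2 to 7 rows had an unadjusted p under 0.05), and 0 to 13 of all genes, so the calls in the other gene lists below also rest on the full set. With no filter limma called 0 genes in those lists as well, apart from 1 erythroid marker. The shares of all genes given above, 10.7% higher and 7.81% lower, are the background for each list below. Tapbp then had log2 changes of 2.44 to 3.27 and adjusted p of 0.066 to 0.168, and H2-T23 had -2.0 to -1.15 and 0.12 to 0.168. With no filter on low values both also missed the threshold, Tapbp at 0.0792 and H2-T23 at 0.137.

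Set against its constitutive counterpart, each inducible subunit was a smaller percentage in both day 5 libraries. Psmb8 RNA was 51.6% and 60.1% of Psmb5 on day 0 and 8.59% and 29.9% on day 5. Psmb9, with both rows summed, was 2.53% and 3.30% of Psmb6 on day 0 and 0.814% and 1.78% on day 5. Psmb10 was 8.96% and 8.99% of Psmb7 on day 0 and 2.71% and 5.34% on day 5. The days did not overlap in any of these ratios. The log2 ratios changed by -1.80, -1.26 and -1.24, and an exact two-sided permutation test gave p = 0.33 for each, the smallest p that 2 libraries against 2 allow. The constitutive genes themselves did not pass, with log2 changes of 0.21 for Psmb5, 0.05 for Psmb6 and -0.11 for Psmb7 (limma adjusted p = 0.566, 0.89 and 0.676).

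**Figure D3:**
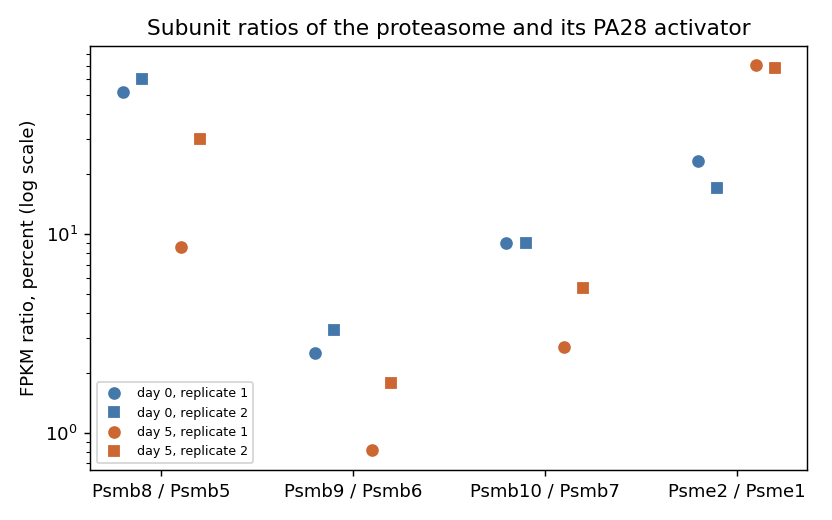
FPKM of 1 subunit as a percentage of another (log scale) in each of the 4 libraries. For Psmb8, Psmb9 and Psmb10 both day 5 points lie under both day 0 points, and for Psme2 relative to Psme1 both lie above.

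Of 13 genes of the constitutive subunits, proteasome assembly and the proteasome's activators, 2 rose, 1 fell and 10 did not pass, beside 18.5% of all genes called. PA28 is an interferon-inducible cap of the proteasome built from PSME1 and PSME2. Psme2 rose from 45.6 ± 10.2 to 105 ± 2.11 FPKM (log2 change 1.21, limma adjusted p = 0.0248), while Psme1 had 227 and 225 FPKM on day 0 and 152 and 152 on day 5 and missed the threshold (-0.57, 0.0554). Psme2 was thereby 23.3% and 17.05% of Psme1 on day 0 and 70.4% and 68.2% on day 5, a ratio computed after these values had been seen. Psme4, the gene of the PA200 activator, rose from 46.0 and 44.0 FPKM to 89.9 and 97.1 (1.04, 0.0206). Psmg1, an assembly chaperone gene, fell from 135 and 183 FPKM to 50.1 and 39.9 (-1.79, 0.014).

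Of 13 genes that help load peptide or fold class I in the endoplasmic reticulum, 2 rose, 1 fell and 10 did not pass, beside 18.5% of all genes called, with a median log2 change of -0.03. Limma called 1 higher and 0 lower with a pseudocount of 0.1 (Calr 0.0508, Sec61g 0.0552) and 0 higher and 1 lower after quantile normalization. Erap1, the aminopeptidase that trims peptides for class I, rose from 2.91 ± 0.00283 to 8.73 ± 1.46 FPKM (1.31, limma adjusted p = 0.0377). Calr, the chaperone calreticulin of the loading complex, fell from 669 ± 32.8 to 428 ± 3.21 FPKM (-0.64, 0.048). Sec61g, a translocon subunit gene, rose from 0.755 ± 0.0698 to 3.47 ± 0.339 FPKM (1.35, 0.0444). It passed the filter, and entered the count of 2, only through day 5, where it is high. Pdia3, the partner of tapasin in that complex, had 279 and 339 FPKM on day 0 and 207 and 212 on day 5 (-0.55, 0.0787). Tapbpl, which encodes the tapasin relative TAPBPR, had 18.2 and 31.5 FPKM on day 0 and 11.3 and 8.66 on day 5 (-1.20, 0.0602). Both Tapbpl libraries of day 5 lay below those of day 0, opposite to Tapbp itself.

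Other class I and class I-like genes were mostly low. Of 24 found, 11 were tested, 2 rose and 0 fell, and 9 did not pass, beside 18.5% of all genes called. H2-T22, a nonclassical heavy chain known as a ligand of gamma-delta T cells, had 10.8 and 14.6 FPKM on day 0 and 44.7 and 38.9 on day 5 (log2 change 1.65 ± 0.23, limma adjusted p = 0.0169). Mr1, which presents vitamin B metabolites, had 4.43 and 2.56 FPKM on day 0 and 12.6 and 10.6 on day 5 (1.51 ± 0.32, 0.0363). The days did not overlap in either gene. H2-T22 lies in the same gene family as H2-T23 and is open to the same doubt about shared reads. H2-Q4, the most abundant of these genes that did not pass, had 40.1 and 22.3 FPKM on day 0 and 41.9 and 32.3 on day 5.

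Genes of the interferon pathway and of class I transcription were higher on day 5 where they passed. Of 28 tested, 8 rose, 0 fell and 20 did not pass, with a median log2 change of 0.57 beside 0.15 over all genes, of which 10.7% were called higher and 7.81% lower. After quantile normalization 5 were called higher and 1 lower, and with a pseudocount of 0.1 Socs1 missed the threshold (limma adjusted p = 0.0759). The receptor chains of interferon gamma both rose, Ifngr1 from 19.0 ± 1.13 to 47.6 ± 5.38 FPKM and Ifngr2 from 8.69 ± 1.19 to 33.2 ± 2.43 FPKM (log2 changes 1.28 and 1.82, limma adjusted p = 0.0196 and 0.0129). Jak2, the kinase shared by this receptor and the erythropoietin receptor, rose from 66.8 ± 10.6 to 139 ± 16.8 FPKM (1.05, 0.0293). Stat2 and Irf9, which encode parts of the factor downstream of type I interferon, rose by 1.47 (0.0398) and 1.61 (0.0298). Nfkb2, an NF-kappaB subunit gene, rose by 1.04 (0.043). Socs1, a feedback inhibitor of JAK kinases, and Irf7, an interferon-induced factor, rose from means under 1 FPKM to 4.94 ± 0.989 and 3.61 ± 2.27 FPKM (2.12 and 1.95, limma adjusted p = 0.0327 and 0.0448). Neither reached 1 FPKM in a day 0 library. Both thus passed the filter, and entered the count of 8, only through day 5, where they are high.

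Irf1, a main activator of class I promoters, overlapped between days and did not pass (0.59, limma adjusted p = 0.41). Nlrc5, the class I transactivator gene, was listed at 0 in 3 libraries and at 0.105 FPKM in day 5 replicate 1. Irf8, a leukocyte factor gene, was listed at 0 in all 4 libraries. The RFX subunit genes Rfx5, Rfxap and Rfxank and the NF-Y genes Nfya, Nfyb and Nfyc did not pass.

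**Figure D4:**
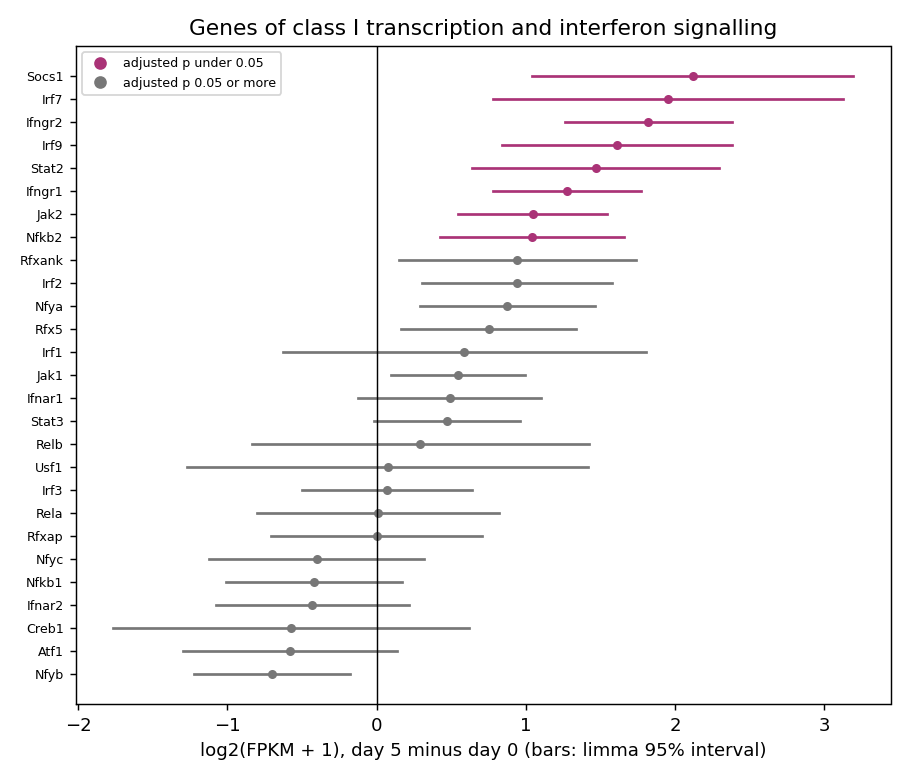
Log2(FPKM + 1) on day 5 minus day 0 for tested genes of interferon signalling and class I transcription, with limma's 95% intervals. The 8 genes in colour passed an adjusted p of 0.05, and each of them is to the right of 0.

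Class II genes and leukocyte markers were at or near 0 with few exceptions. Of 10 class II genes, 6 were listed at 0 in every library, among them H2-Aa, H2-Ab1 and H2-Eb1, and Cd74, the invariant chain gene, reached 0.48 FPKM in a single day 0 library. H2-DMa had 7.73 and 8.24 FPKM on day 0 and 5.84 and 2.64 on day 5 (limma adjusted p = 0.167). H2-Oa had 1.22 and 2.16 FPKM on day 0 and was listed at 0 on day 5 (0.0589). Of 8 macrophage and dendritic markers, Csf1r, Emr1, Lyz2, Cd14 and Mrc1 were listed at 0 in all libraries, and the 8 together summed to 0.766 to 1.30 FPKM on day 0 and 0.629 to 2.09 on day 5. Of 9 lymphoid markers 4 were at 0 throughout, among them Cd3e, Cd4 and Nkg7, with sums of 0.359 to 0.649 FPKM on day 0 and 0.474 to 2.14 on day 5. The 8 fibroblast, endothelial and epithelial markers summed to 1.66 to 3.47 and 1.60 to 3.31 FPKM. All 8 erythroid markers rose, from sums of 1054 and 1722 FPKM to 32340 and 30480. Of these, Epb4.2 and Slc4a1 passed the filter through day 5 alone. In these bulk libraries fewer cells of a type and less RNA per cell cannot be told apart.

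By RefSeq's order on mouse chromosome 17, Tapbp, H2-K1, Psmb9, Tap1, Psmb8, Tap2, H2-D1 and H2-T23 follow one another in the MHC, while B2m is on chromosome 2 and Psmb10 on chromosome 8. Among the neighbours Psmb9, Tap1, Psmb8 and Tap2, both TAP genes leaned higher on day 5 and both immunoproteasome genes lower. None of these changes passed the test. Of 49 other tested genes picked from that region, 3 rose, 3 fell and 43 did not pass, beside 10.7% of all genes higher and 7.81% lower. The median log2 change of the 49 was 0.11. Ring1, a Polycomb subunit gene, rose from 5.99 ± 1.35 to 18.3 ± 3.33 FPKM (1.47, limma adjusted p = 0.0299). Ppt2 (1.35, 0.0231) and the bromodomain gene Brd2 (0.86, 0.0414) rose too. Mrps18b, a mitochondrial ribosome gene, fell from 185 ± 26.2 to 36.5 ± 13.4 FPKM (-2.35, 0.0134). Wdr46 (-1.29, 0.0192) and the tubulin gene Tubb5 (-0.82, 0.0322) fell.

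Chromatin of the locus was read in the mm9 window of chromosome 17 from 34 to 37 Mb. Gene models of that build were not used here, so regions are given by position only and are not joined to a gene or to the GRCm38 promoters above. Polymerase II ChIA-PET listed 66 edges between 1 kb regions in the window on day 0 and 39 on day 5, a ratio of 0.591, beside 4776 and 4618 in the whole genome, a ratio of 0.967. Both ends lay in the window for every one of them. An edge on both days was found 22 times, 33.3% of the day 0 edges and 56.4% of those of day 5, beside 37.8% and 39.1% genome-wide. With regions of 3 kb the window held 144 and 83 edges with both ends inside, a ratio of 0.576 beside 0.741 in the genome. There is 1 edge list per day, so no replicate check was possible.

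The edge with the highest score on both days was the same and was among the longest. It joined 34136660-34137746 to 35399107-35400266, 1262 kb apart, with the authors' score at 3.56 on day 0 (place 76 of 4754 edges within chromosomes) and 8.01 on day 5 (place 17 of 4597). The region 34136660-34137746 also had an edge to 35515816-35517526, 1379 kb away, at 1.43 on day 0 and 2.86 on day 5. The other window edges spanned at most 175 kb, as the plot of score against distance shows. Next on day 0 came edges from 35377320-35380460 to 35391274-35393759 (3.38, and 1.78 on day 5) and from 35957822-35960930 to 35973046-35976541 (3.33, and 1.97 on day 5). On day 5 the following places went to an edge from 34973341-34974440 to 34986435-34988662 (3.61), not listed on day 0, and to 1 from 34065668-34068324 to 34091059-34093747 (3.18, and 1.5 on day 0). The sources used here do not define the score. Class I heavy chain genes of this locus are near-identical in long stretches, so how reads were placed among them is uncertain. Whether this bears on the long edges was not tested.

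**Figure D5:**
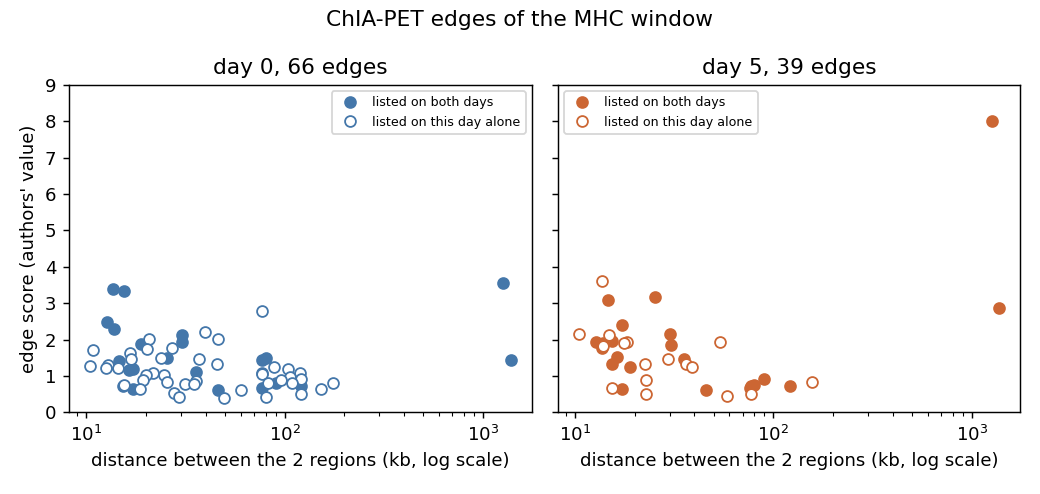
The authors' score of each edge in the window against the distance between its ends (kb, log scale), day 0 on the left and day 5 on the right; filled points were listed on both days. The 2 points farthest right in each panel are the edges from 34136660-34137746, at 3.56 and 1.43 on day 0 and 8.01 and 2.86 on day 5.

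Edges in the window met at 56 regions on day 0 and 47 on day 5, of 370 possible, and 34 regions had edges on both days. The region with the most edges on day 0, 36001825-36008673, had 8 and kept 3. On day 5 the most were 5, at 35973046-35976541, which had 6 on day 0. All regions with an edge overlapped a DNase site of their day, and DNase sites were among the inputs from which the authors built the regions. A PU.1 peak of the same day lay in 20 of the 56 regions (35.7%) on day 0 and in 6 of the 47 (12.8%) on day 5, beside 27.2% of 5084 and 10.8% of 5222 regions with an edge genome-wide.

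Open chromatin of the window was found on both days at most sites. Sites shared by both DNase replicates numbered 448 on day 0 and 552 on day 5, of 147639 and 263887 in the genome, so the window's share of the list went from 0.303% to 0.209%. With a score of at least 5 they numbered 347 and 343. Of the day 0 sites 315, or 70.3% (95% Wilson interval 65.9 to 74.4), overlapped a day 5 site, beside 59.25% genome-wide. Of the day 5 sites 65.9% (61.9 to 69.8) overlapped a day 0 site, beside 37.5%. Intervals here and below cover counting error alone.

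PU.1, an ETS factor of myeloid and lymphoid cells, had 66 merged peaks in the window on day 0 and 21 on day 5, of 14064 and 3530 in the genome, or 0.469% and 0.595% of each list. Every day 5 peak of the window overlapped a day 0 peak, beside 92.9% of day 5 peaks genome-wide. Of the 66, 21 or 31.8% (21.9 to 43.8) had a merged day 5 peak, beside 23.2% genome-wide. A peak of either day 5 replicate overlapped 50 of the 66 (75.8%), beside 70.2% genome-wide. The highest score on both days belonged to the same site, 35396052-35396498 on day 0 and 35396077-35396346 on day 5, open on both days, where the authors' fold enrichment was 36.9 and 39.5 in the day 0 replicates and 15.8 and 25.8 in those of day 5. The next day 0 peaks, at 36932137-36932522 and 34068453-34068844, had folds of 47.75 and 43.7 and of 44.8 and 34.4, and lay in DNase sites on day 0 alone. On day 5 the first of these had folds of 5.53 and 7.30, and the other was found in replicate 2 only (9.26). Next on day 5 were 35996379-35996597 and 34027599-34027908, both open on both days, the latter with folds of 13.0 and 10.9 on day 0 and 11.9 and 13.6 on day 5.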

How the data were processed

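For RNA the authors deposited 1 FPKM value for each gene in each library. Bowtie and build mm9 are named for all assays in the submitters' processing notes, with Bowtie 1.0.0 and MACS2 2.0.10 for PU.1, while the sources used here do not name the FPKM quantifier. PU.1 peaks carry a fold enrichment (ratio) and a −log10 p per replicate as deposited. The authors' merged peak lists carry an IDR (a q-value) and a score, per the file headers. DNase sites and ChIA-PET edges carry a score, as deposited by the authors.

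The days were compared with limma 3.58.1 under R 4.3.3 (linear models with a mean-variance trend, two-sided) on log2(FPKM + 1), for genes that reached 1 FPKM in 2 or more libraries. The fit was also run on simulated normal values that took their spread from the fit itself, so this is no check of that spread. Titles gave the day and replicate of each sample. Labels call the replicates biological, with 2 per day. Regions overlapped by at least 1 base, and merged or intersected lists were used. Footprints, input controls and consolidated lists were not analysed here.

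Members and lists were chosen with earlier results of these data known. All members are named. From each other list up to 3 called genes per direction were named, or else the 2 most abundant, and a few others after their values were seen. Of 63 symbols for the MHC region, 59 were found. Bat1a, Bat2, Bat3 and Bat5 were not found under those names, which does not show that these genes are missing. Single genes of the regulator and marker lists that are counted but not named are not reported here.

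Alternatives were a pseudocount of 0.1, no filter, a filter of 5 FPKM, quantile normalization, rescaling without globin and mitochondrially encoded genes, a replicate block, each library left out, the Psmb9 rows summed, and other list, overlap and score choices for regions.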

Additional observations from a re-analysis of the deposited data

How the results depend on the processing

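With no filter on low values limma called 120 genes higher and 117 lower, and 0 members (3 rows at an unadjusted p under 0.05), against 1150 higher and 839 lower in the fit reported; the cause was not tested. Leaving out a library left 0 to 2 genes higher, 0 to 11 lower and 0 to 0 members in either direction, and moved the member median between -1.07 and -0.27. A filter of 5 FPKM called 2 members higher and 2 lower, adding Tap2 (adjusted p = 0.0489) and Psmb8 (0.0441), and its median was -0.04 over 9 rows, as both Psmb9 rows dropped out. Rescaling without globin and mitochondrial genes called 2 members higher, adding Tap2 (0.047). Samples of the 2 days share only a replicate number: their deviations correlated at 0.05 across genes. With the replicate block 3 members were lower, adding B2m (0.0315) and Psmb8 (0.0466), and 0 of 13 peptide loading partners were called. The changes of H2-K1 and H2-D1, near 0, turned positive with rescaling (0.04 and 0.07) and, at 0.01 and 0.02 for H2-K1 and 0.03 and 0.15 for H2-D1, without single libraries, where they ranged from -0.11 to 0.02 and from -0.16 to 0.15. The other members kept their sign in every alternative. The 3 subunit ratios to constitutive genes kept their sign, at -2.70 to -0.90 for Psmb8, -1.83 to -0.70 for Psmb9 and -1.73 to -0.75 for Psmb10 without single libraries.

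For the window, regions of 3 kb gave 144 and 83 edges, 51 of them on both days. A single DNase replicate listed 492 to 549 sites on day 0 and 787 to 1026 on day 5, and a score of at least 5 left 347 on day 0 and 343 on day 5. The share of day 0 DNase sites found on day 5 was 58.3% to 78.35% by single replicates. A single PU.1 replicate listed 154 to 221 peaks on day 0 and 64 to 93 on day 5, the upper part of the lists by score 34 and 8, and the share of day 0 peaks found on day 5 ran from 9.50% to 74.2%. Depth is unknown for every library.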

Other observations

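The score of a ChIA-PET edge listed on both days often differed between days by a quotient of small whole numbers. Among the 22 window edges between 1 kb regions on both days, the day 5 score divided by the day 0 score was within 0.0001 (relative) of a quotient of whole numbers from 1 to 12 for 16, and the score was equal on both days for 4. Genome-wide this held for 1320 of 1807 such edges, 73.05%, and with 3 kb regions for 3793 of 5370, 70.6%. In the window 10 of the 22 shared edges had a higher score on day 5 and 8 a lower one, while among the 51 shared edges between 3 kb regions 15 were higher and 36 lower. Genome-wide the shared edges split into 856 higher and 777 lower with 1 kb regions and 2167 higher and 2717 lower with 3 kb regions.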
